A study of Mus musculus with 6 samples.

Results

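The spots described here are subcortical Visium spots from the 2 sections of 5xFAD brain, split by how much Cst7 RNA they held. Visium is a spatial assay in which a tissue section is laid on an array of barcoded spots and the transcripts captured over each spot are counted as unique molecular identifiers (UMIs). A spot covers a small area of tissue and can hold several cells of different types. Spots were kept if they lay under the tissue mask, had a barcode in the count matrix, held at least 4000 UMIs and carried more UMIs of Slc17a6, the vesicular glutamate transporter of thalamic and hypothalamic neurons, than of Slc17a7, its cortical and hippocampal counterpart. The spots were thus selected on their measured Slc17a6, Slc17a7, total and Cst7 UMIs. This left 557 spots, 330 in the E3 section and 227 in the E4 section, of 5433 tissue spots in the 5xFAD pair and 14524 in all 6 sections. Spots with 3 or more Cst7 UMIs are called Cst7-rich (35 in each section, 70 in all) and spots with 0 are called Cst7-free (219 in E3 and 93 in E4, 312 in all). The other 175 spots held 1 or 2 Cst7 UMIs, 76 in E3 and 99 in E4.

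The study placed 1 coronal section of a female right hemisphere per genotype and condition on the array. All mice carried human APOE in place of mouse Apoe by targeted replacement and were homozygous for APOE3 (E3) or APOE4 (E4). The 5xFAD mice were E3 or E4 mice of 12 months that also carried the 5xFAD transgenes, mutant human amyloid precursor protein and presenilin driven in neurons by Thy1 regulatory sequence. The other sections came from E3 and E4 mice without the transgenes at 3 months (young) and 24 months (aged). With 1 section per genotype there was no replicate within a genotype. Spots of a section are not replicates of an animal, so within a genotype the values are given with exact 95% intervals for counting error only, and nothing was tested there. The test that could be run asked whether a gene differed between the summed Cst7-rich and the summed Cst7-free spots of a section, with the section as a block, over n = 2 sections of different genotype (edgeR quasi-likelihood, 1 residual degree of freedom). The classes were set on Cst7 counts in these same spots, so a call says that a gene moved with Cst7 in these sections. A gene's sum over spots cannot tell more cells of a type from more RNA per cell.

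Cst7 encodes cystatin F, an inhibitor of lysosomal cathepsins that resident microglia of the healthy brain scarcely express. Near amyloid plaques microglia adopt a state named disease-associated microglia (DAM), which depends on the lipid receptor TREM2 and its adaptor TYROBP and in which Cst7, Itgax, Spp1, Gpnmb and many lysosomal genes are switched on while genes of resting microglia such as P2ry12 and Tmem119 decline. The thalamus relays sensory and motor signals to the cortex, the hypothalamus controls hormones, feeding and arousal through peptide-secreting neurons, and in 5xFAD mice plaques also form in subcortical regions.

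The 5xFAD sections held 29692552 (E3) and 34041935 (E4) UMIs in all. They differed in how the mask and the matrix met: 99.9% of the spots under the mask had a barcode in the matrix in E3 but 81.3% in E4, and the matrix barcodes outside the mask had median totals of 5333 and 1622 UMIs. The matrices shared 2484 of 2779 and 3332 barcodes, which in Visium mark array positions and are the same on every array, so a shared barcode is not a shared spot. The header of the E3 5xFAD matrix names Space Ranger 2.0.0 and that of the other 5 matrices Space Ranger 1.2.2, so genotype and software version cannot be told apart between the 5xFAD sections. The contrast of rich and free spots lies within a section, where the version was the same.

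The Cst7 counts that chose the spots were low. In E3 the 35 rich spots held from 3 to 14 Cst7 UMIs and in E4 from 3 to 8, with a median of 4 in both. Just inside the threshold, 7 spots in E3 and 14 in E4 held 3 Cst7 UMIs. Just outside it, 22 spots in E3 and 31 in E4 held 2. As a share of the subcortical spots, 10.6% (exact binomial 95% interval 7.50 to 14.4) were rich in E3 and 15.4% (11.0 to 20.8) in E4, and 33.6% (28.6 to 39.0) and 59.0% (52.3 to 65.5) held at least 1 Cst7 UMI. When each spot was thinned to 4000 UMIs, 18.5% (14.4 to 23.1) of the E3 spots kept at least 1 Cst7 UMI. In E4 30.0% (24.1 to 36.4) did, and these intervals did not overlap. At this equal depth 9 spots of E3 (2.73%, 1.25 to 5.11) and 8 of E4 (3.52%, 1.53 to 6.83) kept 3 or more. Most rich spots thus fell below the threshold, and the intervals for 3 or more overlapped between the 2 sections. All these intervals treat the spots of a section as independent, and the sections were not tested against each other. The same rule gave 475, 436, 320 and 414 subcortical spots in the E3 young, E4 young, E3 aged and E4 aged sections. Of these, 2, 0, 5 and 7 spots held any Cst7 UMI, and 1 spot, in the E4 aged section, held 3.

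The label of the spots was checked against marker genes. Over all subcortical spots the level of Slc17a6 was 404 counts per 1000000 UMIs (CPM) in E3 and 531 in E4, beside 175 and 232 for Slc17a7, an order that the rule itself set. Each spot was further called thalamic or hypothalamic from 2 marker lists (14 thalamic and 20 hypothalamic genes). Each gene's log level was expressed in standard deviations from its mean over the subcortical spots of that section. The list with the higher mean in the spot gave the call. The call is thus relative to the other spots of the section, and its counts are not on the same scale in E3 and E4. By this call all 35 rich spots of E3 and 29 of 35 in E4 were thalamic, against 74 of 219 and 54 of 93 Cst7-free spots. Cst7-rich spots therefore came mostly from the thalamic spots, and the Cst7-free spots were a mixture of thalamic and hypothalamic ones in both sections.

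Cst7-rich spots were also found beside each other. A Visium spot has up to 6 neighbours on the array. Of the subcortical neighbours of rich spots, 43.9% (36 of 82) in E3 and 34.6% (44 of 127) in E4 were rich too. Of the subcortical neighbours of Cst7-free spots, 3.29% (21 of 638) and 12.1% (30 of 247) were rich. The map of the spots shows this grouping, with 2 rich spots of E4 lying far from the rest.

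**Figure D1:**
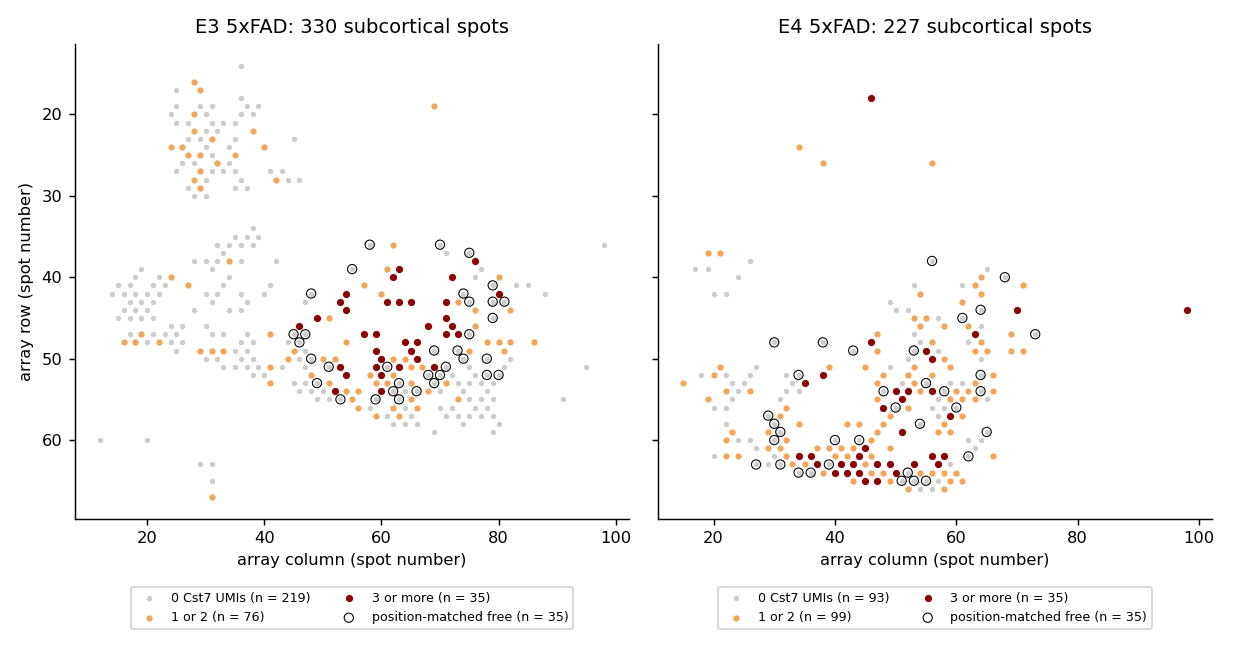
Array position (row and column numbers) of every subcortical spot of the E3 and E4 5xFAD sections, coloured by its Cst7 UMIs, with the position-matched Cst7-free spots circled. Rich spots (dark red, 35 per section) lie within 1 part of each array, apart from 2 in E4, and E3 has a large block of Cst7-free spots (grey) that holds no rich spot.

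Because the classes differed in place, each rich spot was compared with 3 sets of Cst7-free spots of its own section. In the first, the comparison on which the genes were named, free spots were matched 1 to 1 on total UMIs alone, which gave median totals of 13515 (rich) and 13456 (free) in E3 and 16758 and 16506 in E4. Of these free spots 14 of 35 were thalamic in E3 and 18 of 35 in E4. In the second, they were matched on UMIs within the thalamic or hypothalamic class, so 35 of 35 and 29 of 35 were thalamic. In the third, each rich spot was matched with the nearest unused free spot on the array with total UMIs within 20%, of which 33 of 35 and 26 of 35 were thalamic. Below, these are called UMI-matched, region-matched and position-matched free spots.

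The genes that were higher in Cst7-rich spots were mainly microglial and lysosomal, with a smaller set of thalamic genes beside them. Among the genes that were lower, the hypothalamic list gave the most calls of any list. Against UMI-matched spots, edgeR called 21 of 7828 genes higher (0.268%) and 33 lower (0.422%) at an adjusted p of 0.05, with 869 at an unadjusted p under 0.05. Of the 33 genes called lower, 10 were hypothalamic and 3 GABAergic, and the others belonged to no list. Against position-matched spots it called 44 of 7820 genes higher (0.563%) and 6 lower (0.0767%). Against region-matched spots it called 0 of 7785 genes in either direction (0.0%), with 382 at an unadjusted p under 0.05, and DESeq2 also called 0, with 24. The number of calls was unstable. DESeq2 on the UMI-matched sums called 0 higher and 5 lower, and edgeR called 0 higher and 4 lower when the tissue mask was ignored, which added 4 rich spots in E4.

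The direction of the fold changes moved less than the number of calls. Of the 21 genes called higher, 15 were also among the 44 called against position-matched spots, and all 21 kept their direction in both other matchings. The matchings shared the same rich spots, so a kept direction is not a separate check. Their median log2 fold change went from 1.50 to 1.25 against region-matched and 1.11 against position-matched spots. Of the 33 genes called lower, 28 could be tested in both other matchings and 27 of these kept their direction. Their median log2 fold change, however, shrank from −1.75 to −0.51 against region-matched and −0.41 against position-matched spots. The region classes were set by the thalamic and hypothalamic lists, which hold 4 of the 21 and 10 of the 33 genes. Matching within these classes itself moves such genes toward 0, so the region-matched value is not an independent check. Only 3 of the 33, Cbln1, Gad1 and Oxt, were among the 6 called lower against position-matched spots.

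**Figure D2:**
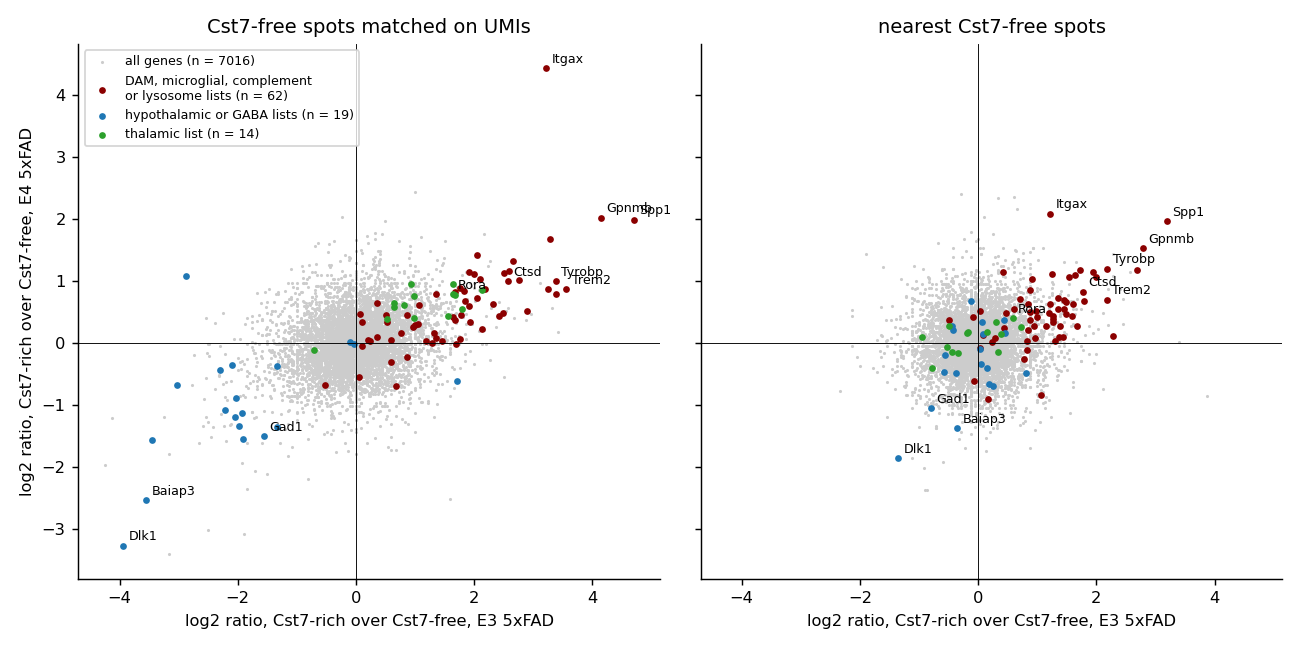
Log2 ratio of summed CPM, Cst7-rich over UMI-matched (left) or position-matched (right) Cst7-free spots, in the E3 section (x axis) against the E4 section (y axis), 1 point per gene, with microglial-type, thalamic and hypothalamic or GABA genes coloured. In the left panel all 23 DAM genes with enough counts lie above 0 in E3 and 20 of 23 in E4, Tyrobp among them (3.38 in E3 and 1.0 in E4).

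The sensing genes of microglia come first. Tyrobp, the signalling adaptor of TREM2, was detected in all 35 rich spots of each section. In E3 its level ran from 200 CPM through a median of 978 to 2657 in rich spots, and from 0 through 74.4 to 312 in UMI-matched free spots, so that only the lowest rich spots overlapped the free ones. In E4 the ranges were 37.8, 373 and 1126 in rich and 0, 155 and 1290 in free spots, and overlapped over most of their length. Over summed spots Tyrobp stood at 967 CPM against 92.7 in E3 (log2 ratio 3.38, interval 2.92 to 3.87) and at 403 against 201 in E4 (1.0, 0.67 to 1.35). Across the sections the edgeR log2 fold change was 2.09 ± 0.40 (SE, adjusted p = 0.0387) and against position-matched spots 1.74 ± 0.16.

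Trem2 itself missed the threshold against UMI-matched spots (edgeR log2 fold change 1.93 ± 0.42, adjusted p = 0.0665) and was called against position-matched spots (1.38 ± 0.17). It stood at 468 CPM in rich and 39.7 in UMI-matched free spots of E3, and at 284 and 155 in E4. Csf1r, the receptor that microglia need to survive, stood at 241 and 75.1 CPM in E3 and at 139 and 78.6 in E4 (edgeR 1.24, adjusted p = 0.0521).

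Itgax, the CD11c integrin subunit that marks plaque-associated microglia, was the called gene with the highest fold change among those named. Its counts were small. In E3 it was found in 16 of 35 rich spots and 3 of 35 UMI-matched free spots (28 and 3 UMIs), and in E4 in 14 and 1 (22 and 1 UMIs). The log2 ratios were 3.22 (1.53 to 5.58) in E3 and 4.44 (1.81 to 9.80) in E4, with an edgeR log2 fold change of 3.55 ± 0.53 (adjusted p = 0.0109). Against position-matched spots, where 9 and 5 free spots held Itgax, the fold change was 1.56 ± 0.41.

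Spp1, which encodes the secreted phosphoprotein osteopontin, rose by a log2 fold change of 3.00 ± 0.41 (edgeR, adjusted p = 0.00822). In E3 the rich spots ran from 0 through 64.8 to 2702 CPM, and the UMI-matched free spots from 0 through 0 to 112. In E4 they ran from 0 through 57.8 to 1432 and from 0 through 0 to 320. Most of the Spp1 RNA lay in few spots: 1 rich spot gave 59 of 130 UMIs (45.4%) in E3 and 1 gave 31 of 85 (36.5%) in E4. Without that spot the E3 log2 ratio was 3.90 instead of 4.70 and the E4 log2 ratio 1.40 instead of 2.00. Spp1 was the 1 gene that DESeq2 called higher against position-matched spots.

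Gpnmb, a lysosomal membrane glycoprotein induced by lipid load, stood at 117 CPM in rich and 6.62 in UMI-matched free spots of E3, and at 59.4 and 14.6 in E4. Its edgeR log2 fold change was 2.90 ± 0.45 (adjusted p = 0.0127). In E3, 15 of the 35 rich spots and 3 of the 35 free spots held it, and in E4 18 and 7. Cd68, a lysosomal glycoprotein of phagocytes, was found in 27 rich and 8 free spots in E3 and in 24 and 10 in E4, with a fold change of 2.45 ± 0.36 (edgeR, adjusted p = 0.0103). Ccl3, a chemokine, followed the same pattern on few molecules, with 24 and 4 UMIs in E3 and 13 and 1 in E4. Thus the strongest calls of this group rested on genes that were not detected in many of the rich spots at this depth. The low-count filter admitted a gene with enough counts in the sums of 1 class alone. Itgax, Gpnmb and Ccl3 passed it through the rich spots, so their direction was largely set by the filter.

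Lysosomal enzymes were measured far more deeply. Ctsd, the aspartyl protease cathepsin D, was detected in every spot of both classes. In E3 the rich spots ran from 668 through 2906 to 8504 CPM and the UMI-matched free spots from 123 through 502 to 1853. In E4 they ran from 848 through 1863 to 4939 and from 311 through 852 to 2997. The medians stood well apart in both sections, and the ranges overlapped in both. The summed level was 5.96-fold higher in E3 (interval 5.22 to 6.81) and 1.99-fold in E4 (1.79 to 2.22). The edgeR log2 fold change was 1.76 ± 0.28 (adjusted p = 0.0153), and 1.32 ± 0.12 against position-matched spots, where the E3 and E4 folds were 3.40 and 1.78.

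Lyz2, lysozyme of myeloid cells, rose by a log2 fold change of 1.49 ± 0.27 (adjusted p = 0.0305 by edgeR) and Laptm5, a lysosomal membrane protein of blood-lineage cells, by 1.48 ± 0.26 (adjusted p = 0.0240 by edgeR). Of the 32 lysosomal genes 29 could be tested. Against UMI-matched spots 4 were called higher and 0 lower, Cd68, Ctsd and Laptm5 among them, with a median log2 fold change of 0.64 beside −0.00 for all genes. Against position-matched spots 12 were called higher and 0 lower, with a median of 0.73. Among those 12 were the cathepsins Ctsz, Ctss, Ctsl, Ctsb and Ctsa, Grn, the lysosomal growth factor progranulin, and Npc2, which moves cholesterol out of lysosomes.

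Psap and Lamp1 had small ratios that the test did not call. Psap, the precursor of the saposins that activate lipid hydrolases, stood at log2 ratios of 0.20 (0.04 to 0.36) in E3 and 0.04 (−0.09 to 0.18) in E4. Lamp1, the main lysosomal membrane glycoprotein, stood at 0.35 (0.07 to 0.63) and 0.10 (−0.15 to 0.35). Cst3, cystatin C, a relative of Cst7 that microglia and astrocytes express at high levels, had log2 ratios of 0.79 (0.69 to 0.89) in E3 and 0.24 (0.15 to 0.33) in E4 and was called against position-matched spots alone. Cst3 belongs to none of the lists and was picked after its values were seen.

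**Figure D3:**
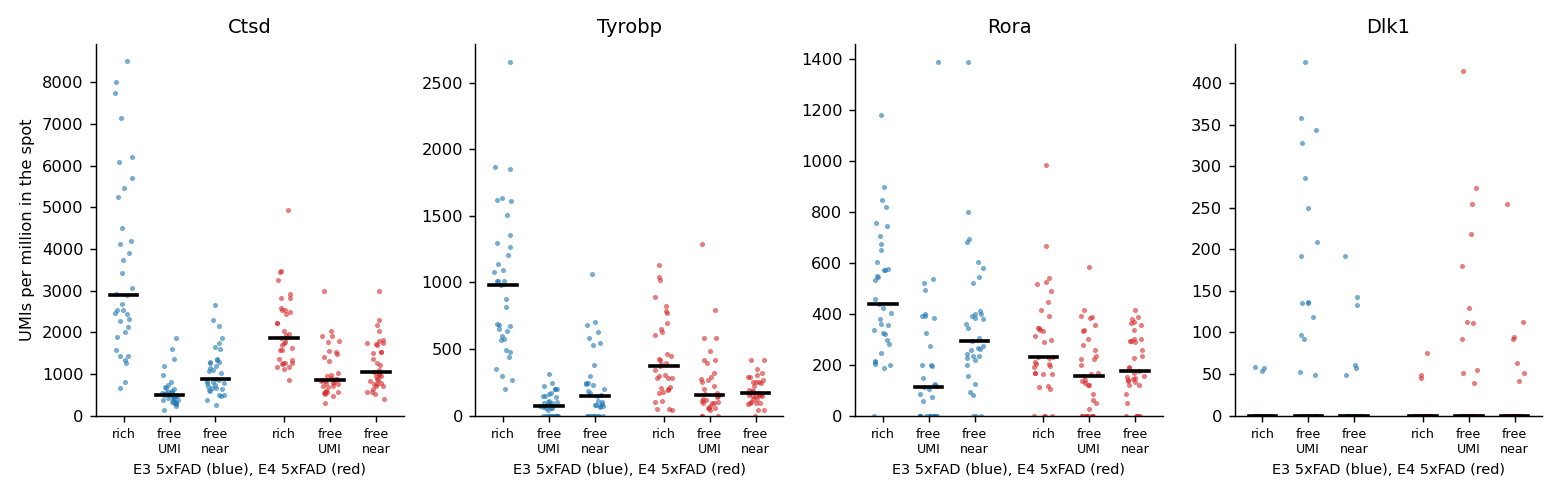
CPM of Ctsd, Tyrobp, Rora and Dlk1 in each single spot, for Cst7-rich, UMI-matched free and position-matched free ("near") spots of E3 (blue) and E4 (red), 35 spots per column with the median as a bar. Ctsd and Tyrobp have higher medians in rich spots in all comparisons, whereas the Rora and Dlk1 differences seen against UMI-matched spots narrow against nearby spots.

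Over the whole DAM list, from which Cst7 was left out, 23 of 26 genes could be tested and all 23 lay above 0. Members such as Itgax and Gpnmb passed the low-count filter through the rich spots, which largely set their direction. The count of 23 is therefore not a separate check. Against UMI-matched spots 7 were called higher and 0 lower (Itgax, Spp1, Gpnmb, Cd68, Tyrobp, Ctsd and Lyz2), and the median log2 fold change was 1.36 beside −0.00 for all genes. Against position-matched spots 14 were called higher and 0 lower, with a median of 1.14, and against region-matched spots 0 were called, with a median of 1.16. By section, the summed DAM genes had log2 ratios of 1.25, 1.19 and 0.95 in E3 against UMI-matched, region-matched and position-matched spots, and of 0.40, 0.35 and 0.43 in E4. Against UMI-matched spots 19 of the 23 DAM genes with at least 20 UMIs had a log2 ratio of at least 1 in E3 (5.78% of all genes) and 8 of 23 in E4 (2.79%). Against position-matched spots these were 14 of 23 (3.16%) and 7 of 23 (2.18%). The differences within the list were wide. Fth1, the iron-storage ferritin heavy chain and an abundant member, stood at 0.23 (0.13 to 0.34) in E3 and 0.04 (−0.06 to 0.14) in E4. Axl, a receptor for dying cells, stood at 1.36 (0.44 to 2.37) and 0.79 (−0.05 to 1.66), and Lpl, lipoprotein lipase, at 2.89 (1.54 to 4.59) and 0.53 (−0.57 to 1.67).

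Of 14 genes of resting microglia 10 could be tested, with a median log2 fold change of 1.25 and 0 called lower against UMI-matched spots. Against position-matched spots Fcrls and Csf1r were among 3 called higher and 0 were called lower, with a median of 0.72. The purinergic receptor P2ry12 had log2 ratios of 1.64 (0.45 to 3.00) in E3 and 0.41 (−0.55 to 1.41) in E4. The membrane protein Tmem119 stood at 0.68 (−0.55 to 1.98) and −0.70 (−2.00 to 0.53), on 10 to 16 UMIs per class. Cx3cr1, the fractalkine receptor, stood at 2.32 (1.27 to 3.54) and 0.64 (−0.24 to 1.55). P2ry12, Tmem119 and Cx3cr1 did not pass the test over the 2 sections against any matched set, although the E3 counting intervals of P2ry12 and Cx3cr1 against UMI-matched spots lay above 0.

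Of 12 complement genes 7 could be tested. Against UMI-matched spots 2 were called higher (C1qa and C1qb), against position-matched spots 3 (with C1qc) and against region-matched spots 0, and 0 were called lower. C1qa, C1qb and C1qc encode the chains of C1q, which starts the classical complement cascade and in brain is made by microglia. C1qa ran from 148 through 635 to 2545 CPM in rich and from 0 through 141 to 781 in UMI-matched free spots of E3, and from 83.3 through 383 to 1408 and 0 through 198 to 561 in E4. It rose by a log2 fold change of 1.55 ± 0.24 (edgeR, adjusted p = 0.0134), and C1qb by 1.30 ± 0.23 (adjusted p = 0.0262 by edgeR). C1qc stood at 519 and 92.7 CPM in E3 and 301 and 214 in E4 and was called against position-matched spots alone. The summed log2 ratio was 2.11 in E3 and 0.78 in E4 against UMI-matched spots and 1.26 and 0.59 against position-matched spots. C4b, the complement component made by reactive astrocytes and oligodendrocytes, stood at 1.77 (0.97 to 2.64) and 0.46 (−0.02 to 0.95) and was not called.

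B2m, the light chain of MHC class I, stood at 781 and 194 CPM in E3 and at 466 and 291 in E4, and rose by a log2 fold change of 1.31 ± 0.26 (edgeR, adjusted p = 0.0498). It was the 1 called gene of 5 tested MHC class I genes. H2-D1, an MHC class I heavy chain, was called with it against position-matched spots (1.06 ± 0.22). MHC class II genes were too sparse to be tested against UMI-matched spots. Of 4 tested interferon-response genes 0 were called by edgeR against any of the 3 matched sets. With 0.268% of all genes called higher against UMI-matched spots, 0 of 4 says little about this list.

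Of 18 genes of reactive astrocytes 3 could be tested against UMI-matched spots and 1, Serpina3n, was called higher. Against region-matched spots 0 of 4 were called, and against position-matched spots 2 of 4, Serpina3n and Gfap. Serpina3n, a protease inhibitor induced in reactive astrocytes, ran from 0 through 271 to 1635 CPM in rich and from 0 through 68.5 to 337 in UMI-matched free spots of E3, and from 0 through 281 to 1053 and 0 through 129 to 994 in E4. Its summed level was alike in the rich spots of the genotypes (307 CPM in E3 and 306 in E4), while the free spots stood at 88.3 and 143. It rose by 1.40 ± 0.23 on the log2 scale (edgeR, adjusted p = 0.0154). Gfap, the astrocyte intermediate filament, stood at 437 and 81.7 CPM in E3 and 365 and 230 in E4 and was called against position-matched spots alone (1.07 ± 0.16). Of 18 genes of resting astrocytes 18 were tested and 0 called, with a median of 0.26. In the other matchings edgeR called 0 of these 18 too. Over all genes 0.268% were called higher and 0.422% lower against UMI-matched spots, so 0 of 18 says little.

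**Figure D4:**
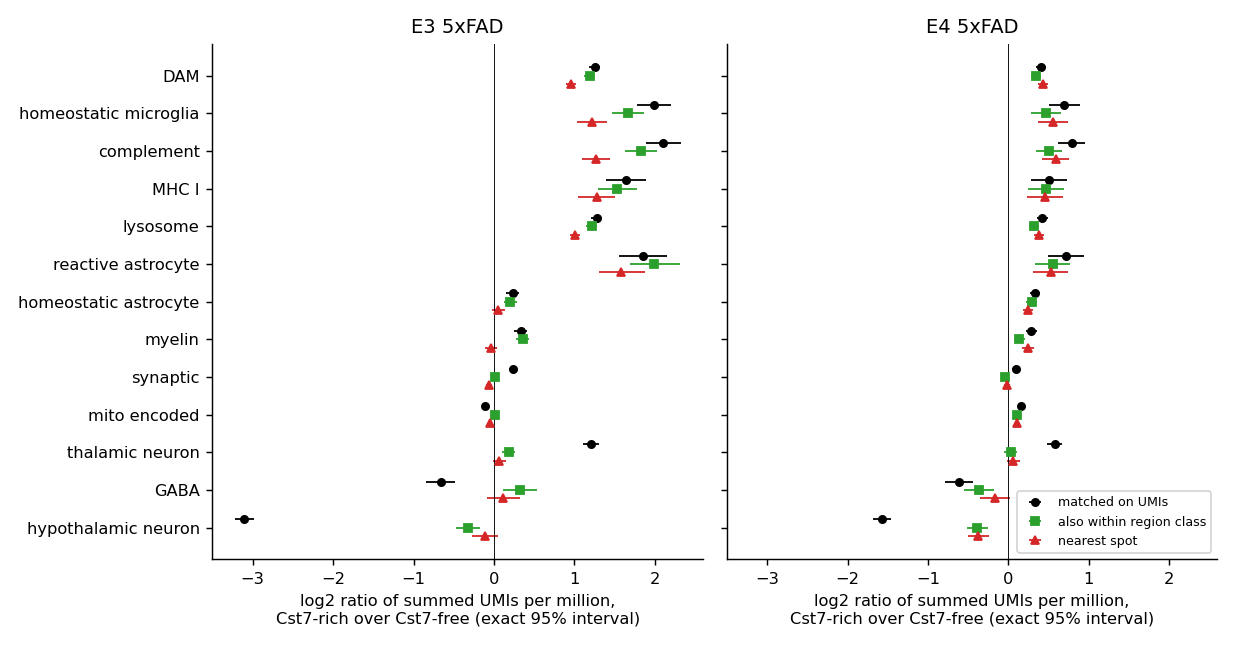
Log2 ratio of the summed CPM of each gene list, Cst7-rich over Cst7-free spots, with exact 95% intervals for counting error, in E3 and E4 against the 3 matched sets of free spots. Microglial, complement, MHC class I, lysosomal and reactive astrocyte lists stay above 0 under every matching, whereas the hypothalamic list moves from −3.10 in E3 and −1.57 in E4 to −0.11 and −0.38 against the nearest spots.

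The promoters printed are those of called microglial and lysosomal genes that were picked because a window of theirs holds a motif. The windows run from 250 bases before to 50 bases after the annotated start, on the gene's strand, and come from RefSeq on GRCm38.p6. Of the 44 genes called higher against position-matched spots, 37 had a window. Spp1 had 2 windows, and the first that held a match is printed. Capitals mark TGACTCA on either strand (the AP-1 motif, read as TGAGTCA on the other strand) in Itgax (chr7:128129300-128129599, plus strand), Gpnmb (chr6:49036268-49036567, plus strand) and Cd68 (chr11:69666121-69666420, minus strand), TCACGTGA (a lysosomal-gene E-box, its own reverse complement) in Ctsd (chr7:142387778-142388077, minus strand), and GAGGAAGT (the PU.1 motif, both strands searched) in Spp1 (chr5:104434861-104435160, plus strand).
Itgax: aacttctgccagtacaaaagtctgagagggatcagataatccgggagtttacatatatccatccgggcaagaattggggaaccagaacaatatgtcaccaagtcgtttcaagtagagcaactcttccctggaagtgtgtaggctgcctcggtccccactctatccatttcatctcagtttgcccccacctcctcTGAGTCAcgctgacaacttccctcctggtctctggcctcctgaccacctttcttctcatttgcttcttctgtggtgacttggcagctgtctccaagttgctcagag
Gpnmb: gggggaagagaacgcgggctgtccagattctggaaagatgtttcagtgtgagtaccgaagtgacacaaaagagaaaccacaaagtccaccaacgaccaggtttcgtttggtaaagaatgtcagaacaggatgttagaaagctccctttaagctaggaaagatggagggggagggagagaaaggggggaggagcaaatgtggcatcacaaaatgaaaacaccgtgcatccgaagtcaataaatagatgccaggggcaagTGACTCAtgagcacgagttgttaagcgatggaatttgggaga
Cd68: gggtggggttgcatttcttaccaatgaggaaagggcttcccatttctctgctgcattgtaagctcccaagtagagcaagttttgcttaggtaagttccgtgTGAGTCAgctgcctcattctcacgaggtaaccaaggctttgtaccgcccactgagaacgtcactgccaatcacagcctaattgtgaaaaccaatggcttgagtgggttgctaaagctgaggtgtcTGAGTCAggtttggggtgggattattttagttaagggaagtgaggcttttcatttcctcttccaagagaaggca
Ctsd: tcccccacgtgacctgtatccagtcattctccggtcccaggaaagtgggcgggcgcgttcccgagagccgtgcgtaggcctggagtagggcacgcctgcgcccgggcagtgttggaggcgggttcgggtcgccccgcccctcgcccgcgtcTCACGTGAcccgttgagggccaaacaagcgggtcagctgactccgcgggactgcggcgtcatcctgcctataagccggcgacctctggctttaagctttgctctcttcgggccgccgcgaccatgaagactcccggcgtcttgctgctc
Spp1: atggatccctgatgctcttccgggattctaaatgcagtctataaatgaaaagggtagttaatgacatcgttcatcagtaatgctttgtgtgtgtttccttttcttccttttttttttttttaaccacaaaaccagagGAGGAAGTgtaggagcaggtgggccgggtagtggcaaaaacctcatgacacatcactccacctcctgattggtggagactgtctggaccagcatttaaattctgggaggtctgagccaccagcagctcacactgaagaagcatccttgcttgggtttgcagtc

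The AP-1 letters stood in 3 of the 37 called genes with a window (Itgax, Gpnmb and Cd68), and in 5.95% of all 27025 genes with a window. The E-box letters stood in 2 (Ctsa and Ctsd), and in 1.12% of all genes. The PU.1 letters stood in 3 (Spp1, C1qc and Ctss), and in 3.69% of all genes. The 3 motifs do not overlap in letters. A match describes these letters in this window and was not tested as a site.

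Of the 14 thalamic genes 4 were called higher against UMI-matched spots, and 0 against region-matched or position-matched spots by edgeR. Rora, a nuclear receptor of thalamic neurons, ran from 0 through 439 to 1178 CPM in rich and from 0 through 112 to 1390 in UMI-matched free spots of E3, and from 0 through 231 to 983 and 0 through 156 to 584 in E4. It was called with a log2 fold change of 1.20 ± 0.23 (edgeR, adjusted p = 0.0392). Against position-matched spots the fold change was 0.52 ± 0.16 (adjusted p = 0.111 by edgeR). The other thalamic genes called were Plekhg1 (1.51), Rgs16 (1.29), a brake on G-protein signalling, and Adarb1 (1.20), an RNA-editing enzyme, and their values against position-matched spots were 0.55, 0.18 and 0.34. Over the 14 thalamic genes the median went from 0.90 to 0.12 against region-matched spots, where the list itself had set the classes, and to 0.04 against position-matched spots.

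Adgrb1, Adra1b and Nsmf, which belong to no list, were called as well. Adgrb1, an adhesion receptor of synapses and phagocytes, stood at 519 and 243 CPM in E3 and 445 and 217 in E4 (edgeR log2 fold change 1.05 ± 0.18, adjusted p = 0.0228) and was called again against position-matched spots (0.56 ± 0.15). The others were Adra1b, the α1B-adrenergic receptor (1.67 ± 0.32, edgeR adjusted p = 0.0402), and Nsmf, a synapse-to-nucleus signalling protein (0.94 ± 0.18, edgeR adjusted p = 0.0438). Against position-matched spots they stood at 0.43 and 0.22 and were not called.

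Among the genes that were lower, 10 of 15 tested hypothalamic genes were called against UMI-matched spots and 0 were higher, with a list median of −1.83. Members such as Dlk1 and Baiap3 passed the low-count filter through the free spots, which largely set their direction. A log2 ratio of −1 or less was reached by 14 of 14 of these genes with at least 20 UMIs in E3 (6.37% of all genes) and 9 of 14 in E4 (2.54%) against UMI-matched spots, but by 0 of 10 (2.62%) and 2 of 11 (1.96%) against position-matched spots. Dlk1, an imprinted growth regulator of hypothalamic neurons, was found in 3 of 35 rich and 16 of 35 UMI-matched free spots of E3 and in 3 and 12 in E4, and fell by 3.56 on the log2 scale (SE 0.42, edgeR adjusted p = 0.00473). Baiap3, which acts in the release of dense-core vesicles, fell by 2.99 (SE 0.34, adjusted p = 0.00473 by edgeR), on 6 and 70 UMIs in E3 and 10 and 57 in E4. Cartpt, the precursor of the CART feeding peptide, fell by 2.85 (SE 0.37, adjusted p = 0.00814 by edgeR), with 35.3 and 384 CPM in E3 and 18.0 and 53.0 in E4. The highest UMI-matched free spot of E3 held 71 Cartpt UMIs (4867 CPM), beside a median of 1. In E3 12 of 35 rich and 19 of 35 free spots held Cartpt, and in E4 7 and 9. Against position-matched spots the Cartpt log2 fold change was −0.17.

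The peptide genes with the lowest fold changes rested on 1 section each. Pmch and Hcrt, the precursors of melanin-concentrating hormone and of hypocretin in the lateral hypothalamus, held 123 and 87 UMIs in the rich spots of E3 and 2525 and 1025 in the UMI-matched free spots. In E4 Pmch held 0 and 1 UMIs and Hcrt 0 in both classes. Oxt, the precursor of oxytocin, held 74 UMIs in rich and 1014 in free spots of E4 but 5 and 2 in E3, so its log2 ratio was −3.80 (−4.16 to −3.46) in E4 and 1.32 (−1.29 to 4.71) in E3. Against position-matched spots Pmch and Hcrt stood at −0.17 and 0.01, and Oxt at −1.03 ± 0.24.

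The remaining named genes that were lower belonged to no list, apart from Dlk1, Baiap3 and Cartpt above. Their log2 fold changes were −3.22 for Ngb, neuroglobin, −2.85 for Tmem255a, −2.83 for Ecel1, a neuronal endopeptidase, −2.68 for AW551984, −2.35 for Lmo3, a transcriptional cofactor, −2.12 for Cbln1, a synapse organizer, and −1.95 for Tspyl2. Of GABAergic genes 9 were tested and 3 were called lower (Gad1, Gad2 and Penk), with a median of −1.35. Gad1, which makes GABA from glutamate, held 70.6 and 208 CPM in E3 and 54.0 and 154 in E4, and fell by 1.54 (SE 0.23, adjusted p = 0.0109 by edgeR).

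Beside Oxt, which rested on E4, the 2 genes of the UMI-matched calls that were also called lower against position-matched spots were Cbln1 and Gad1, with lower levels in both sections. Cbln1 held 33.1 and 62.7 CPM in rich and near free spots of E3 and 27.0 and 110 in E4 (edgeR log2 fold change −1.54 ± 0.30, adjusted p = 0.000123). Gad1 held 70.6 and 123 CPM in E3 and 54.0 and 112 in E4 (−0.90 ± 0.24, edgeR adjusted p = 0.0319). Calb2, Stmn1 and Mboat7 were called lower against near spots alone, at −0.80, −0.54 and −0.92, and are named here after their values were seen. Calb2 encodes the calcium buffer calretinin, Stmn1 a microtubule regulator and Mboat7 an enzyme that loads arachidonic acid onto phosphatidylinositol. In the position-matched fit edgeR took each gene's spread wholly from what was shared across genes. A gene's own spread, with 1 residual degree of freedom, had no weight. The small p-values rest on that assumption.

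Broad neuronal, myelin and metabolic lists had no calls. Few genes were called at all: 0.268% higher and 0.422% lower against UMI-matched spots, and 0.563% and 0.0767% against position-matched spots. Against region-matched spots 0.0% were called. At these shares lists of this size could easily hold 0 calls, so the counts of 0 say little about them. Of 30 synaptic genes 30 were tested and 0 called by edgeR in any matching, with medians of 0.12, −0.01 and −0.03 against UMI-matched, region-matched and position-matched spots. Of 20 myelin genes 19 were tested and 0 called, with a median of 0.20, and of the 13 mitochondrially encoded genes 0 were called, with a median of −0.02. Glycolytic and HIF1-related genes (17 tested) and cholesterol synthesis genes (20 tested) had 0 calls by edgeR and medians of 0.01 and −0.17 against UMI-matched spots. Among cholesterol genes the log2 ratio of Hmgcs1, an enzyme early in the pathway, was −0.72 (−1.31 to −0.16) in E3 and 0.10 (−0.30 to 0.50) in E4.

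The human genes bear on the model itself. Human APOE, which replaced the mouse gene, stood at 1503 CPM in rich and 958 in UMI-matched free spots of E3 and at 1502 and 1287 in E4, log2 ratios of 0.65 (0.47 to 0.83) and 0.22 (0.08 to 0.37). It was not called (edgeR 0.42, adjusted p = 0.337). Human APP, the transgene, was sparse and stood at 24.3 and 26.5 CPM in E3 and at 28.8 and 18.3 in E4, with intervals of the log2 ratio from −1.45 to 1.18 and from −0.57 to 1.96. A difference in transgene RNA was therefore not detectable at this depth. Thy1, whose regulatory sequence drives the transgenes, stood at 0.02 (−0.11 to 0.16) and 0.06 (−0.06 to 0.17).

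Other cell types that a spot could hold were followed by their own markers. Neutrophil and monocyte markers (7 of 7) were at 0 UMIs in rich and UMI-matched free spots of both sections, S100a8, S100a9 and Ccr2 included. Macrophages of the brain borders summed to 6.62 and 11.0 CPM in E3 and to 12.6 and 7.31 in E4 over 8 markers, with Cd163 and Lyve1 at 0 in both sections. Lymphocyte markers summed to 57.4 and 39.7 CPM in E3 and 32.4 and 40.2 in E4, and ependymal ones to 24.3 and 19.9 and to 39.6 and 42.0. The level of the choroid plexus list was higher in E4 than in E3, with 2688 CPM in rich and 3445 in UMI-matched free spots against 580 and 426. In E4 it stood at 8018 CPM in region-matched free spots (log2 ratio −1.58, −1.66 to −1.49) and at 4058 in position-matched ones (−0.59, −0.69 to −0.50). Endothelial and mural markers had summed log2 ratios of 0.65 in E3 and 0.37 in E4 against UMI-matched and 0.33 and 0.27 against position-matched spots. Of 7 tested, 0 were called by edgeR, where 0.268% of all genes were called higher and 0.422% lower against UMI-matched spots. The median summed level of meningeal, choroid and ependymal genes per spot was 604 CPM in rich and 496 in UMI-matched free spots of E3 and 1672 and 1284 in E4, and without the top 10% of spots for these genes edgeR called 130 genes higher and 120 lower. The part of these cell types in the calls was not tested.

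The DAM and complement lists were also followed over all subcortical spots by their Cst7 count, without matching. In E3 the summed DAM genes stood at 5472, 5616, 7016, 10998 and 15864 CPM in spots with 0, 1, 2, 3 to 4 and 5 or more Cst7 UMIs. In E4 they stood at 6703, 6879, 8048, 8843 and 9052. Thus E4 stood higher at 0 and E3 at 5 or more, and in both sections the spots with 1 Cst7 UMI lay close to those with 0. Between spots with 0 and with 5 or more Cst7 UMIs, the complement list differed as 528 and 2544 CPM in E3, and as 852 and 1394 in E4. The ratio of rich over UMI-matched free spots was larger in E3 than in E4 for many microglial genes, among them Trem2 (3.56 and 0.87), Tyrobp (3.38 and 1.0), Spp1 (4.70 and 2.00) and Ctsd (2.57 and 0.99). Itgax and Ccl3 had the opposite order, on small counts and with intervals that overlapped. The classes were also unlike between the sections: 15 of 35 rich spots in E3 and 9 of 35 in E4 held 5 or more Cst7 UMIs. In E3 35 of 35 rich and 14 of 35 UMI-matched free spots were thalamic, and in E4 29 and 18. Against position-matched spots the summed DAM log2 ratios were 0.95 in E3 and 0.43 in E4, beside 1.25 and 0.40 against UMI-matched spots. With 1 section per genotype and different software versions, the difference between E3 and E4 was not tested.

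**Figure D5:**
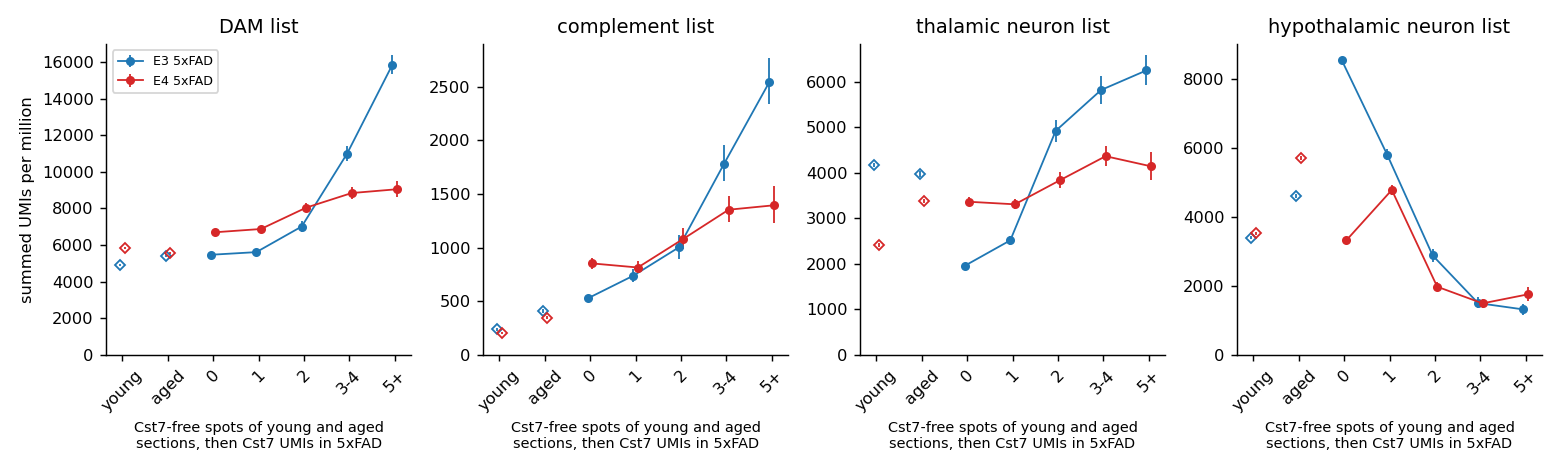
Summed CPM of the DAM, complement, thalamic neuron and hypothalamic neuron lists (y axes) by the Cst7 UMIs of the spot (x axis) in E3 (blue) and E4 (red) 5xFAD, with the Cst7-free spots of the young and aged sections as open diamonds and exact Poisson 95% intervals as bars. The DAM list reaches 15864 CPM in E3 and 9052 in E4 at 5 or more Cst7 UMIs, and the hypothalamic list is lowest in the spots with 3 or more.

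The Cst7-free spots of the 5xFAD sections were themselves set beside the same kind of spots from sections without the transgenes. In the summed Cst7-free spots, the level of Tyrobp was 116 CPM in the E3 and 192 in the E4 5xFAD section, beside 38.2 and 42.1 in young and 61.1 and 52.8 in aged sections. C4b stood at 46.4 and 109, at 10.6 and 10.7, and at 30.7 and 32.3. Both genes were therefore higher in the 5xFAD sections of each genotype than in either section without the transgenes. The Gfap level in Cst7-free spots was 88.6 CPM in E3 and 244 in E4, against 25.7 and 31.2 in young and 57.9 and 58.8 in aged sections.

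In this comparison edgeR called 0 of 13699 genes higher or lower than in young sections (0.0%, genotype as a term, n = 2 sections per condition), with 756 at an unadjusted p under 0.05, and DESeq2 called 26 higher and 3 lower. When each section gave the same number of thalamic (54) and hypothalamic (39) spots, edgeR called 40 of 11027 genes higher (0.363%) and 11 lower (0.0998%). Among the 40 were 10 of 23 tested DAM genes, 5 of 7 complement genes and 8 of 32 lysosomal genes. Cd68 stood at a log2 fold change of 2.42 ± 0.23 over all spots (edgeR, adjusted p = 0.0850) and at 2.43 ± 0.34 over the equal spots (adjusted p = 0.000401). Among the 11 lower were the thalamic genes Prkcd, Plekhg1 and Rora. So were Gm42418 and Malat1, 2 of 6 tested genes followed as marks of RNA quality. Of the 13 mitochondrially encoded genes 0 were called, but 0 lay above 0 and the median was −0.44. Whether RNA quality differed between these sections was not tested. Age (12 months against 3) and strain background differed together with the transgenes here. Age, background and transgenes therefore cannot be told apart in this comparison, and in E3 the software version differed with them.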

How the data were processed

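Visium 3′ libraries of 6 brain sections were used, 1 per genotype and condition. The deposited files hold UMI counts per gene and spot that the authors made with Space Ranger 1.3.0 and STAR 2.5.1b on mm10 with human genes added (per the labels' processing notes), with array positions and a tissue mask. The mask and the matrix barcodes did not match fully in most sections, and both were required. Per the file headers, the E3 5xFAD matrix was written by Space Ranger 2.0.0 and the others by 1.2.2. No normalized values were used here. A few genes of the usual DAM, interferon and glycolysis lists are not analysed here. The spot rule, the gene lists and the tests were chosen with earlier results of these data known.

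UMIs were summed per section and spot class (Python 3.11.15, numpy 2.4.6, scipy 1.17.1, pandas 2.3.3). Cst7-rich spots (3 or more UMIs) were matched 1 to 1 with Cst7-free spots, without reuse. Levels are counts per 1000000 UMIs (CPM) with exact Poisson intervals, and ratios within a section have exact conditional binomial (Clopper-Pearson) 95% intervals. These cover counting error only, and 0.5 UMIs stood in for a count of 0. The main test was edgeR 4.0.16 (limma 3.58.1, R 4.3.3) quasi-likelihood with TMM, filterByExpr and section as a block, since both classes of a section come from the same tissue. P-values were adjusted by Benjamini-Hochberg over all genes tested at 0.05. Cst7, Slc17a6 and Slc17a7 were left out of the counts of calls. DESeq2 1.42.0 was an alternative, beside other matchings, thresholds, filters and scalings. Scripts were tested on simulated data. The genes named were the 20 highest and the 10 lowest called genes with 1 direction in both sections and at least 20 UMIs in each, and members of the lists, and some of these are not reported here.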

Additional observations from a re-analysis of the deposited data

Results flagged for a closer look

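Against position-matched free spots, 3 listed genes moved in opposite directions in the 2 genotypes with counting intervals that excluded 0 in both. Many genes of no list did so too, among them Necab1 (log2 ratios −1.48 in E3 and 0.37 in E4) and Ddah1 (−0.92 and 0.81). The 3 are thus named for their lists and are not set apart by this pattern. The log2 ratio of Syn2, a synaptic vesicle protein, was −0.39 in E3 and 0.53 in E4. For the mitochondrially encoded subunits mt-Nd1 and mt-Co2 the ratios were −0.08 and 0.15, and −0.07 and 0.15. With 1 section per genotype the difference was not tested.

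A small share of subcortical spots held a Cst7 UMI in the aged sections, which the contrast of Cst7-rich and Cst7-free spots did not use. It was 1.56% in E3 aged (5 of 320 spots) and 1.69% in E4 aged (7 of 414), above the 0.421% (2 of 475) of E3 young and the 0 of 436 in E4 young, which allows a share of up to 0.688%. The exact binomial intervals were 0.509 to 3.61 and 0.682 to 3.45 in the aged sections and 0.0510 to 1.51 in E3 young, so they overlapped.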

How the results depend on the processing

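The number of calls depended on the setting, while no named gene reversed its direction in the alternatives in which it could be tested. Genes were named only if they had 1 direction in both sections, and the alternatives reused rich spots of the main comparison. A kept direction was therefore largely set in advance. Of the 10 named lower genes, 5 could be tested with region-matched and with position-matched spots and 6 with 5 or more Cst7 UMIs. The UMI-matched comparison (21 higher, 33 lower) gave 54 and 50 with all free spots, 0 and 0 with region-matched spots (also 0 and 0 by DESeq2), 44 and 6 with position-matched spots (1 and 0 by DESeq2), 79 and 73 with 2 or more Cst7 UMIs, 20 and 20 with 5 or more, 10 and 25 with 8000 or more UMIs per spot, 130 and 120 without spots rich in meningeal, choroid or ependymal genes, 0 and 4 with the mask ignored, 38 and 44 with library size alone, 112 and 117 without a filter and 0 and 5 with DESeq2. The mask setting and DESeq2 on the other matchings were chosen after seeing the data. Both classes of a section form a pair. Without this pairing (no replicate block) 8 were higher and 18 lower. Leaving out a section left no residual degree of freedom, so the ratios of the other section stand without a test. The summed DAM log2 ratio in E3 (1.25) was 0.95 with position-matched spots, 0.92 with 2 or more Cst7 UMIs, 1.49 with 5 or more and 1.33 with Slc17a6 at least 3 UMIs above Slc17a7. In E4 (0.40) it was 0.32, 0.66 and 0.56 in the last 3 of these. For Cst7-free 5xFAD against young spots (0 and 0), equal thalamic and hypothalamic spots gave 40 and 11, DESeq2 26 and 3, and leaving out 1 section from 2 to 100 higher and 0 to 38 lower, with 100 and 38 without E4 5xFAD, 33 and 7 without E3 young and 30 and 4 without E3 5xFAD. The cause of these differences was not tested. With 35 spots a class, genes of few UMIs, such as Itgax, Ccl3 and Tmem119, have wide intervals.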
